A study of Danio rerio with 24 samples.

Results

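Heme is made by a short chain of enzymes, and 10 genes of that chain were read in pathway order in sorted blood, vessel and other cells of zebrafish. They are alas1 and alas2 for the entry step, then alad, hmbsa, hmbsb, uros, urod, cpox, ppox and fech. The genes were chosen by name, not by a cut on their values, but with earlier results of these data known. All 10 were found among the 25067 genes of the deposited table. All 10 passed the filter on low values, which kept 21024 genes.

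Heme synthesis starts in the mitochondrion, where 5-aminolevulinate synthase joins glycine and succinyl-CoA. The middle steps run in the cytosol, and the last steps return to the mitochondrion, where ferrochelatase puts iron into protoporphyrin. In vertebrates alas1 serves nearly all tissues, whereas alas2 is the red cell form and feeds the heme that hemoglobin needs. In zebrafish, loss of alas2, urod or fech causes an anemia, and loss of urod or fech also makes red cells sensitive to light.

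The cells came from zebrafish with a CD41:GFP reporter, for blood stem and progenitor cells and thrombocytes, and a kdrl:mCherry reporter, for endothelium. The 24 poly(A) RNA libraries form 12 groups of 2. Hematopoietic stem and progenitor cells (HSPC), endothelial cells (EC) and double-negative cells (DN) came from embryos and larvae. They were taken at 36 hours (36 hpf), 3 days (3 dpf) and 4 days (4 dpf) after fertilization. A further DN sort was made at 52 hpf. Adult HSPC and DN cells were taken at 3 months (3 mpf) from the marrow of the kidney, where the design text names the CD41:GFP reporter alone. No group differs from another by a mutation or a drug. Sample titles name the caudal hematopoietic tissue, the part of the tail where HSPC expand, from 52 hpf on, and whether the 36 hpf dissection was the same is not stated. HSPC and EC cells at 52 hpf were not analysed here. No label names a clutch or sort for each replicate. All p-values thus reflect the scatter of these samples, some or all of it perhaps technical.

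Several libraries went against their labels or stood apart. kdrl, the endothelial receptor behind one reporter, was at 3.68 to 5.16 FPKM (fragments per kilobase, scaled to library depth) in EC 36 hpf but at most 0.333 FPKM in the EC-labelled libraries of 3 and 4 dpf. In the kidney it was at 0 and 6.975 FPKM in DN libraries and at 0.574 and 4.23 FPKM in HSPC libraries. itga2b, which encodes CD41, was at 0.428 and 0 FPKM in HSPC libraries at 36 hpf, against 6.54 and 7.98 FPKM in HSPC libraries and 5.72 to 6.55 FPKM in libraries labelled EC at 3 dpf. EC 4 dpf replicate 2 held 1741360 reads and 2483 genes above 0, while the other libraries held 7146361 to 21338170 reads and 11265 to 23100 genes. HSPC 4 dpf replicate 2, the library with 11265 genes, had 43.9% of its FPKM in mitochondrial genes and itga2b at 0.

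EC 4 dpf replicate 2 matters for these genes. It listed alad, hmbsa, ppox and fech at 0 and urod at 0.889 FPKM (2 reads), but held alas1 at 307, alas2 at 307, hmbsb at 297, uros at 324 and cpox at 484 FPKM. EC 4 dpf replicate 1 had urod at 838, alad at 160.0, hmbsa at 244, ppox at 112 and fech at 227 FPKM. Median-of-ratios scaling gave EC 4 dpf replicate 2 a size factor of 2.15, against 0.737 to 1.52 in the other libraries. The FPKM levels given here are not divided by these factors, so those of replicate 2 stand high beside the others. Because all groups share one estimate of the spread, that 1 library set the residual standard deviation (log2 scale) of urod to 1.92 with 24 libraries, against 0.736 with 22 libraries, and that of fech to 1.69, against 0.604. The main tests use all 24 libraries. Each count of called genes of the pathway is therefore given also from the fit to 22 libraries, without EC and HSPC 4 dpf replicate 2. Counts of called genes from marker lists and from lists of genes near the pathway come from 24 libraries alone. Those counts cannot be set beside the 22-library counts of the pathway.

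**Figure D1:**
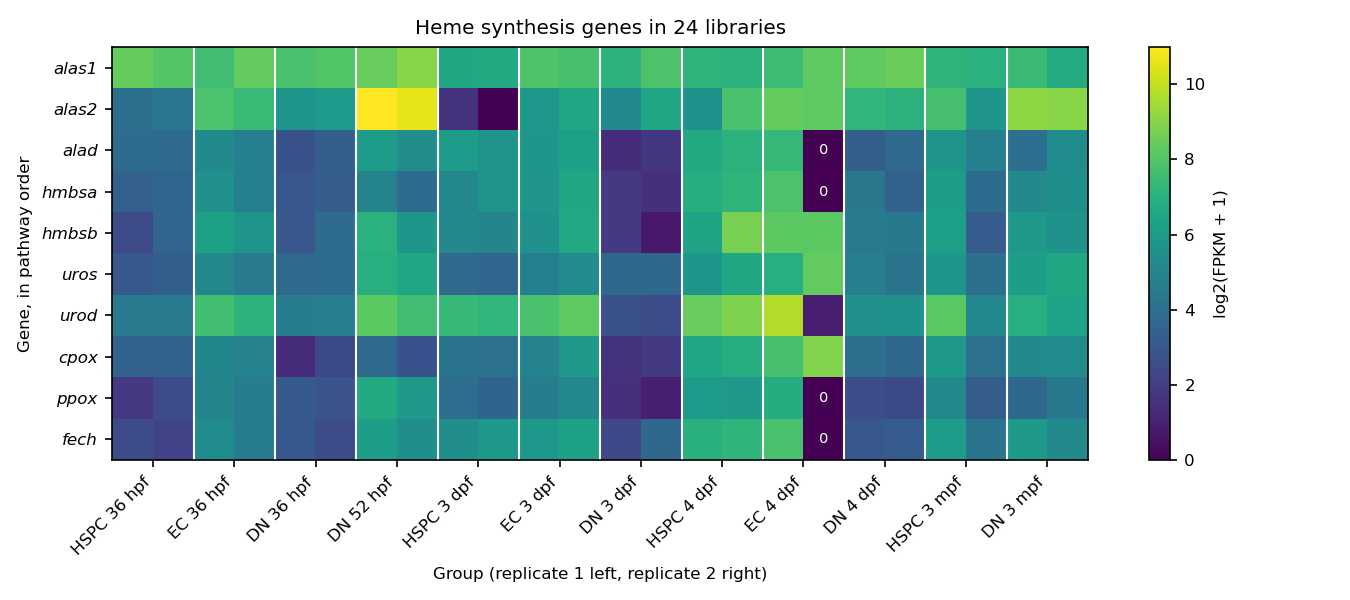
Level of each heme synthesis gene, in pathway order from top to bottom, in each of 24 libraries as log2(FPKM + 1); each group has replicate 1 left and replicate 2 right, and genes listed at 0 carry a 0. alas2 is darkest in HSPC 3 dpf and brightest in DN 52 hpf, the alad, hmbsa, hmbsb, urod, cpox and ppox rows have their lowest group mean in DN 3 dpf and uros and fech in HSPC 36 hpf, and EC 4 dpf replicate 2 has 4 genes at 0.

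In the map of levels by library, alas1 had the most even row. It ranged over 96.1 to 525 FPKM across the 24 libraries with a median of 226 FPKM. The highest group mean was 437 ± 125 FPKM in DN 52 hpf and the lowest 101 ± 6.6 FPKM in HSPC 3 dpf (SD, n = 2 each), a 4.34-fold span. Of the 11 steps between neighbours in the order of group means, 10 overlapped, and the exception was HSPC 4 dpf at 140 and 133 FPKM above HSPC 3 dpf at 96.1 and 105 FPKM.

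alas2 ranged far more widely. DN 52 hpf had the highest level, 2038 and 1545 FPKM, and kidney DN cells came next with 558 and 521 FPKM. EC libraries at 4 dpf had 336 and 307 FPKM, and EC at 36 hpf had 232 and 169 FPKM. In FPKM as deposited, each of these groups lay wholly above the next one in that order. The place of EC 4 dpf above EC 36 hpf depends on the scaling. EC 4 dpf replicate 2, at 307 FPKM, had a size factor of 2.15, against 1.03 and 1.02 in EC 36 hpf.

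Lower by group mean were groups whose libraries overlapped. DN 4 dpf had 149 and 133 FPKM of alas2, HSPC 4 dpf 49.5 and 226 FPKM, and kidney HSPC 213 and 52.4 FPKM. The libraries labelled EC at 3 dpf had 56.5 and 88.5 FPKM, DN 3 dpf 36.1 and 94.6 FPKM, and DN 36 hpf 54.3 and 66.9 FPKM. Among these 6 groups, every neighbouring pair overlapped. The higher HSPC 4 dpf library and the higher kidney HSPC library also lay within the EC 36 hpf range of 169 to 232 FPKM.

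The HSPC sorts of 36 hpf and 3 dpf held the lowest levels of alas2. HSPC 36 hpf had 15.8 and 19.1 FPKM, from 773 and 642 reads. HSPC 3 dpf had 2.04 and 0.0338 FPKM, from 63 reads and 1 read. The highest group mean was 1731 times the lowest. The size of that fold is uncertain, since the lowest mean averages 2.04 and 0.0338 FPKM.

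**Figure D2:**
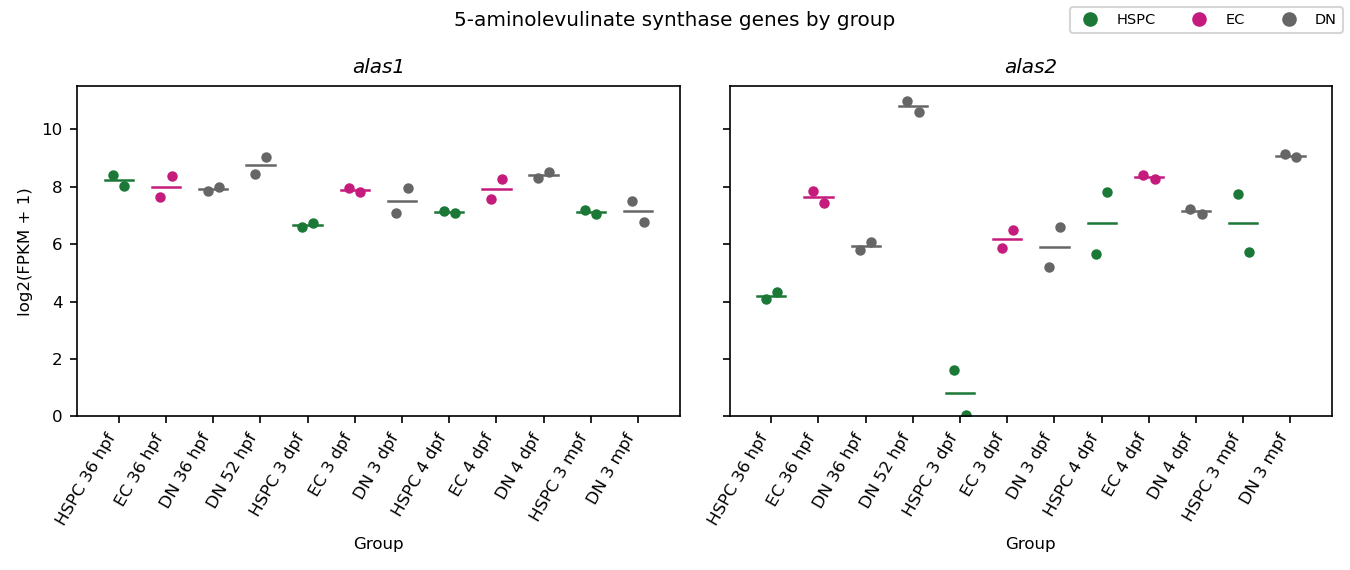
Levels of alas1 (left) and alas2 (right) as log2(FPKM + 1) in 12 groups; each point is 1 library, bars are group means, and colors mark HSPC, EC and DN. alas1 stays within 96.1 to 525 FPKM, whereas alas2 spans 0.0338 to 2038 FPKM and is lowest in HSPC 3 dpf.

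The genes whose 12 group means ran most like those of alas2, by Pearson correlation of log2(FPKM + 1) among 13899 genes with a symbol, were cahz (0.97), aqp1a.1 (0.91), tmod4 (0.90), hbz (0.89) and hprt1l (0.88). cahz is the carbonic anhydrase of zebrafish red cells and aqp1a.1 a water channel, and both are on the red cell marker list used here. aqp1a.1 is on the endothelial marker list as well. For alas1 they were itgav (0.93), mylz3 (0.88), bcl6ab (0.88), angptl7 (0.88) and ctgfa (0.87), which encode an integrin chain, a muscle myosin light chain, a transcriptional repressor, an angiopoietin-like protein and a matricellular growth factor. alas1 and alas2 correlated with each other at 0.50. These are descriptions over 12 group means that share libraries and depth.

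By median correlation, the 8 genes after the entry step ran together more than they ran with either synthase, but uros was an exception. Over the same 12 group means, their 28 pairs correlated at 0.36 to 0.97 with a median of 0.74, and at 0.55 to 0.97 with a median of 0.87 without EC 4 dpf. Pairs with alas2 had correlations of 0.010 to 0.74 and a median of 0.20. Pairs with alas1, alas2 included, lay at -0.41 to 0.50 with a median of -0.15. uros was the later gene closest to alas2 with or without EC 4 dpf. Over 12 groups it correlated with alas2 at 0.74, and among the later genes only hmbsb was closer to it (0.84). Its correlations with the others ran from 0.36 with alad to 0.715 with cpox. The closest pair was alad and urod over 12 groups (0.97) and hmbsb and urod without EC 4 dpf (0.97).

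alad, the gene of the enzyme that joins 5-aminolevulinate into porphobilinogen, had group means of 2.04 FPKM in DN 3 dpf up to 117 FPKM in HSPC 4 dpf. Without its replicate 2, at 0, EC 4 dpf stood highest at 160.0 FPKM. hmbsa and hmbsb, paralogs for the enzyme that links porphobilinogen into a chain, had their lowest group means in DN 3 dpf as well, at 2.16 and 1.67 FPKM. Their highest were 130.4 FPKM in HSPC 4 dpf for hmbsa and 298 FPKM in EC 4 dpf for hmbsb. For hmbsa EC 4 dpf averaged 122 FPKM, and it was highest, at 244 FPKM, without replicate 2. The counting may have divided reads between these paralogs, so the split between them is uncertain.

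uros, whose enzyme closes the chain into a ring, did not have its low point in DN 3 dpf. Its lowest group mean, 8.07 FPKM, was in HSPC 36 hpf and its highest, 221 FPKM, in EC 4 dpf. urod, for the decarboxylase of the next step, was the most abundant later gene per length in every library except both DN 3 dpf libraries, EC 4 dpf replicate 2 and kidney DN replicate 2, with a lowest group mean of 5.20 FPKM in DN 3 dpf. The highest mean of urod, 419 FPKM in EC 4 dpf, averages 838 and 0.889 FPKM and so depends on which of those libraries is kept.

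cpox and ppox encode the oxidases that lead to protoporphyrin. Their group means were lowest in DN 3 dpf, at 2.37 and 1.42 FPKM, and highest in EC 4 dpf for cpox (352 FPKM) and DN 52 hpf for ppox (83.2 FPKM). fech, for ferrochelatase, was lowest in HSPC 36 hpf (4.15 FPKM) and highest in HSPC 4 dpf (134 FPKM). Without EC 4 dpf replicate 2, at 0 for both genes, EC 4 dpf was highest for ppox (112 FPKM) and fech (227 FPKM).

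**Figure D3:**
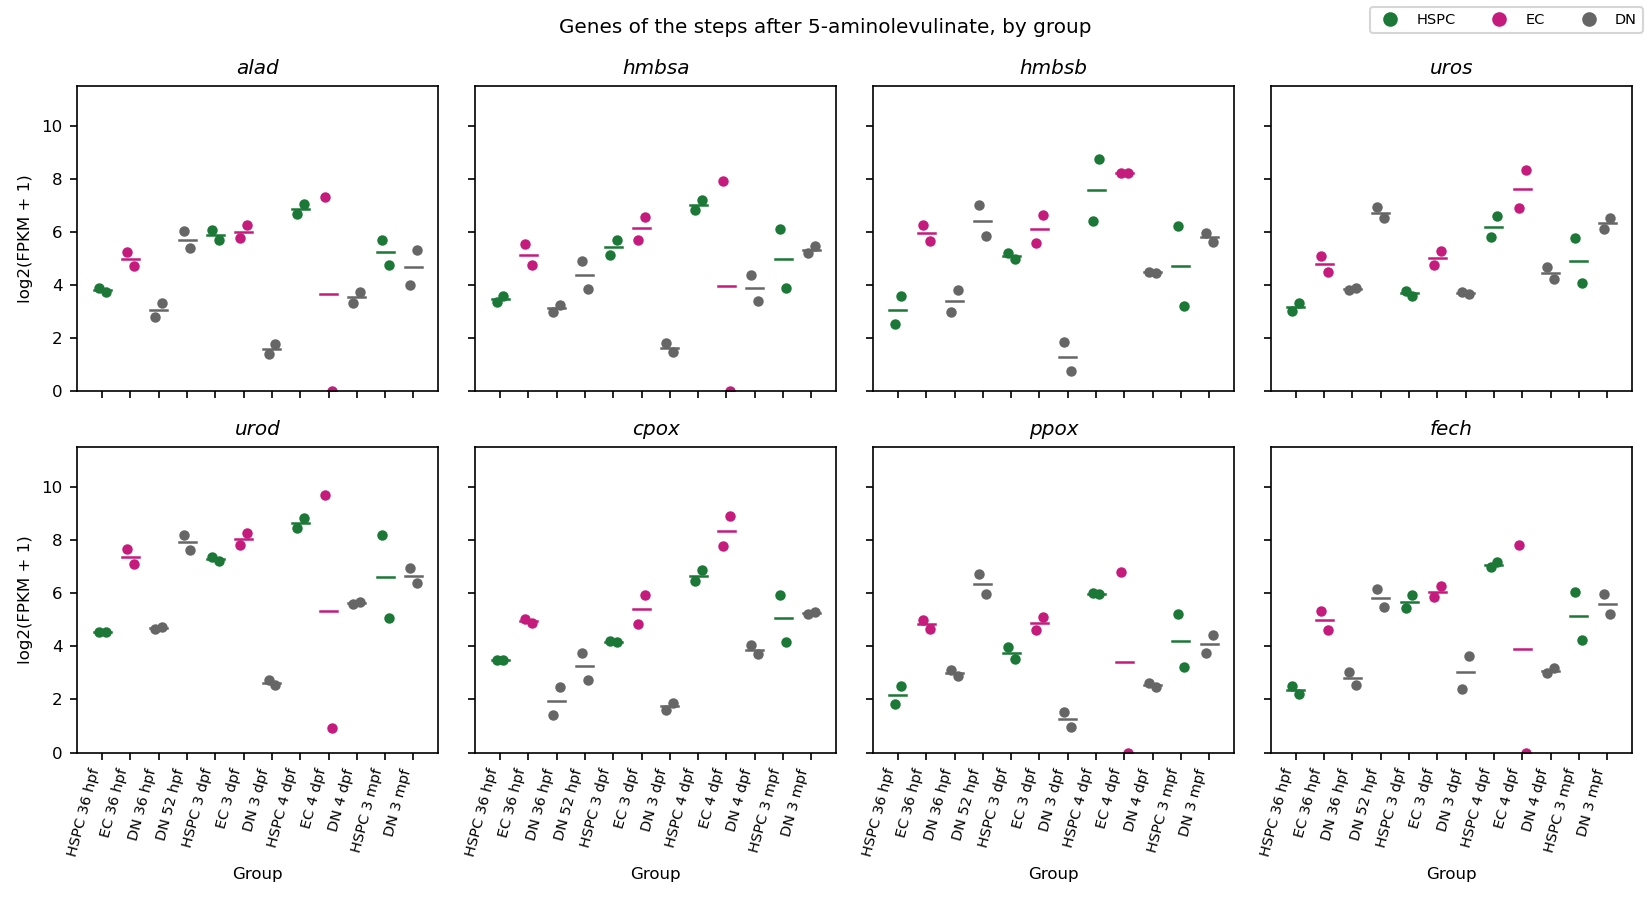
Levels of the 8 genes after the entry step as log2(FPKM + 1) in 12 groups; each point is 1 library, bars are group means, and colors mark HSPC, EC and DN. DN 3 dpf is the lowest group for alad, hmbsa, hmbsb, urod, cpox and ppox, and EC 4 dpf replicate 2 lies at or near 0 for alad, hmbsa, urod, ppox and fech.

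At 36 hpf, HSPC libraries held less alas2 than EC libraries, with 15.8 and 19.1 FPKM against 232 and 169 FPKM. No HSPC library reached an EC library. The log2 fold change was -3.44 ± 0.77 (standard error, limma on log2(FPKM + 1), Benjamini-Hochberg adjusted p = 0.0288), and alas2 was the 1 gene of the pathway called, which needed an adjusted p under 0.05 and a fold of 1 log2 unit or more. Lower calls made up 0.618% of all genes tested. The 10 genes had a median log2 fold change of -2.16, beside -0.16 over all genes.

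urod had 22.2 and 22.5 FPKM in HSPC at 36 hpf, against 202 and 136 FPKM in EC libraries, and ppox had 2.52 and 4.70 FPKM, against 31.2 and 23.9 FPKM. These groups did not overlap either. In the 22-library fit 6 genes were lower in HSPC, alas2, hmbsb, uros, urod, ppox and fech, where 1.93% of all genes were called lower.

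Markers of red cells moved with this difference. The 21 red cell markers that are neither globins nor heme enzymes summed to 168 to 192 FPKM in HSPC 36 hpf, against 900.3 to 1224 FPKM in EC 36 hpf, and 4 of them fell while none rose. The 8 embryonic and larval globins summed to 1397 to 1584 FPKM in HSPC, against 13740 to 20120 FPKM in EC, and 4 fell. HSPC and thrombocyte markers ran against the labels, with sums of 164.7 to 230.4 FPKM in HSPC and 352.5 to 436.0 FPKM in EC. Epidermal markers summed to 20330 to 21580 against 10630 to 12860 FPKM and neutrophil and macrophage markers to 836 to 1139 against 2390 to 3799 FPKM, with none called, and mitochondrial genes held 25.2% and 25.4% of FPKM in HSPC against 11.1% and 10.2% in EC. Their part in the result was not tested, and in such bulk samples fewer cells of a type cannot be told apart from less RNA per cell. The call on alas2 ended under median-of-ratios scaling (adjusted p = 0.0631), a pseudocount of 0.1 (0.322), limma-voom on recovered reads (0.397) and without any 1 of the 4 libraries (0.144 to 0.354).

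EC against DN cells at 36 hpf showed higher cpox, at 31.6 and 28.1 FPKM in EC against 1.64 and 4.59 FPKM in DN libraries. The log2 fold change was 3.00 ± 0.68 (limma adjusted p = 0.0205), and higher calls made up 2.12% of all genes. All 10 genes had positive values, with a median of 1.98 beside 0.08 over all genes. In the 22-library fit 7 genes were called higher, alad, hmbsa, hmbsb, urod, cpox, ppox and fech, where 6.4% of all genes were.

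The synthase genes were not among those 7. alas2 had a log2 fold change of 1.70 ± 0.77 (adjusted p = 0.309, and 0.0615 with 22 libraries) in EC against DN cells, and alas1 0.08 ± 0.48 (adjusted p = 1.0). Red cell markers summed to 900.3 to 1224 FPKM in EC, against 307 to 336 FPKM in DN cells, with 0 of 21 called with 24 libraries. How many of them the 22-library fit called was not counted, and their part was not tested. The cpox call ended with a pseudocount of 0.1 (adjusted p = 0.109), limma-voom (0.170) and without any 1 of the 4 libraries (0.0724 to 0.297).

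HSPC against DN cells at 36 hpf gave no called gene with limma, where 7.28% of all genes were called, 2 genes at an unadjusted p under 0.05 and 0 called by limma-voom. cpox had 10.3 and 10.1 FPKM in HSPC against 1.64 and 4.59 FPKM in DN cells, and alas2 15.8 and 19.1 FPKM against 54.3 and 66.9 FPKM. The groups did not overlap for either gene, and the 22-library fit called cpox higher (log2 fold change 1.54 ± 0.50, adjusted p = 0.0370) and alas2 lower (-1.74 ± 0.56, adjusted p = 0.0367), where 8.23% and 12.1% of all genes were. Red cell markers summed to 168 to 192 FPKM in HSPC against 307 to 336 FPKM in DN cells (1 of 21 higher, 2 lower), larval globins to 1397 to 1584 against 4837 to 5212 FPKM (2 of 8 lower) and neutrophil and macrophage markers to 836 to 1139 against 280 to 338 FPKM (2 of 14 higher). Liver markers had 8 of 12 higher, and mitochondrial genes held 25.2% and 25.4% of FPKM in HSPC against 7.49% and 8.05% in DN libraries, and their part was not tested.

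At 3 dpf, 5 of the 8 later genes were higher in EC-labelled libraries than in DN cells and 4 of 8 in HSPC, while neither synthase gene was. These comparisons share the DN libraries. In libraries labelled EC against DN libraries, urod had 225 and 306 FPKM against 5.63 and 4.77 FPKM, a log2 fold change of 5.41 ± 1.64 (limma adjusted p = 0.0215). hmbsb had 46.4 and 98.4 FPKM in EC against 2.65 and 0.684 FPKM in DN cells (4.79 ± 0.90, adjusted p = 0.000586). Every EC library lay well above both DN libraries for these genes.

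In that comparison cpox also rose, with 28.0 and 60.6 FPKM in EC against 2.07 and 2.67 FPKM in DN cells (3.65 ± 0.68, adjusted p = 0.000548). alad and hmbsa rose by 4.43 ± 1.37 and 4.48 ± 1.50 (adjusted p = 0.0241 and 0.0378). These 5 of 10 genes were called higher, where higher calls made up 5.28% of all genes. The 22-library fit called all 8 later genes higher, where 15.1% of all genes were.

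alas1 and alas2 stood apart from those 8 genes. alas2 had 56.5 and 88.5 FPKM in EC against 36.1 and 94.6 FPKM in DN cells at 3 dpf, and the libraries overlapped (0.27 ± 0.77, adjusted p = 0.891). alas1 had 247 and 223 FPKM against 135 and 244 FPKM (0.37 ± 0.48, adjusted p = 0.689). Neither was called with 22 libraries (adjusted p = 0.405 for alas1 and 0.777 for alas2).

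Around the pathway, tmem14ca, related to a mammalian carrier of protoporphyrinogen into the mitochondrion, rose to 160 FPKM on average in EC against 3.34 FPKM in DN cells at 3 dpf (5.17 ± 1.51, adjusted p = 0.0171). tfr1b, a transferrin receptor that takes up iron, rose to 75.7 against 9.81 FPKM (2.83 ± 0.56, adjusted p = 0.000860). ppargc1a, a coactivator that in mouse liver raises Alas1, fell to 2.49 against 47.8 FPKM (-4.03 ± 0.67, adjusted p = 0.000184). Of the fixed lists, 2 of 17 genes of substrate supply and import rose, 2 of 20 of iron uptake and iron-sulfur clusters rose, 0 of 14 of heme export and breakdown were called and 2 of 19 of enzyme control fell.

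The marker lists moved at 3 dpf as well. Red cell markers summed to 1246 to 1333 FPKM in EC, against 267 to 458 FPKM in DN cells, with 5 of 21 higher and 2 lower, while larval globins overlapped at 4256 to 6694 FPKM in EC and 4457 to 8778 FPKM in DN cells with 0 of 8 called. HSPC and thrombocyte markers had 13 of 20 genes higher in EC, with sums of 1058 to 1086 against 118 to 121 FPKM, and neutrophil and macrophage markers 11 of 14 higher, with sums of 11360 to 12200 against 126 to 279 FPKM. Their part in the result was not tested. hmbsb and cpox kept their calls in every fit run, whereas alad and hmbsa lost theirs with a pseudocount of 0.1 (adjusted p = 0.113 and 0.137) and limma-voom (0.0610 and 0.0751), and hmbsa with no filter (0.0606). Without any 1 of the 4 libraries alad, hmbsa and urod were not called (adjusted p = 0.0851 to 0.184).

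HSPC against DN cells at 3 dpf gave the widest gap between alas2 and the later genes. alas2 fell to 2.04 and 0.0338 FPKM in HSPC, against 36.1 and 94.6 FPKM in DN cells (-5.07 ± 0.77, limma adjusted p = 4.32e-05). urod had 163 and 148 FPKM in HSPC against 5.63 and 4.77 FPKM (4.66 ± 1.64, adjusted p = 0.0393). The groups did not overlap for either gene, and the directions were opposite.

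alad rose to 66.5 and 50.8 FPKM in HSPC, against 1.62 and 2.46 FPKM in DN cells (4.30 ± 1.37, adjusted p = 0.0233). hmbsb rose to 35.6 and 30.8 against 2.65 and 0.684 FPKM (3.78 ± 0.90, adjusted p = 0.00331) and cpox to 17.5 and 16.7 against 2.07 and 2.67 FPKM (2.43 ± 0.68, adjusted p = 0.0108). In all 4 genes were higher, where 5.56% of all genes were, and 1 was lower, where 23.5% were. With 22 libraries 7 genes were higher (14% of all genes) and alas2 alone was lower (31.2%).

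uros did not move with the others in HSPC against DN cells at 3 dpf. It had 12.8 and 11.1 FPKM in HSPC against 12.3 and 11.6 FPKM in DN cells, a log2 fold change of -0.0045 ± 0.66. alas1 had 96.1 and 105 FPKM against 135 and 244 FPKM (-0.84 ± 0.48, adjusted p = 0.217). Larval globins summed to 121 to 124 FPKM in HSPC with hbae5 and hbbe3 at 0, against 4457 to 8778 FPKM in DN cells, and 7 of 8 fell. Red cell markers summed to 894 to 968 FPKM in HSPC against 267 to 458 FPKM in DN cells, with 3 of 21 higher and 5 lower, and their part was not tested.

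Iron and control genes near the pathway also differed between HSPC and DN cells at 3 dpf. slc40a1, the iron exporter ferroportin, fell to 1.40 and 0.619 FPKM in HSPC, against 23.8 and 25.3 FPKM in DN cells (-3.70 ± 0.78, adjusted p = 0.00123). ppargc1a fell to 0.729 and 1.96 against 50.9 and 44.6 FPKM (-4.43 ± 0.67, adjusted p = 4.15e-05). mafga, for a small Maf protein that pairs with regulators of heme genes, was listed at 0 in both HSPC libraries against 8.55 and 12.2 FPKM in DN cells (adjusted p = 0.00128). Called genes were 1 higher of 17 in supply and import, 2 higher and 2 lower of 20 in iron, 1 lower of 14 in export and breakdown and 3 lower of 19 in control.

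The alas2 call in HSPC against DN cells held in every fit run. With a pseudocount of 0.1 those of alad and urod ended (adjusted p = 0.0809 and 0.0539), that of urod also with no filter (0.0638) and median-of-ratios scaling (0.0506), and both ended without any 1 of the 4 libraries (0.0750 to 0.143). cpox was not called without either HSPC library or without DN replicate 1 (0.0531 to 0.0770), nor hmbsb without DN replicate 2 (0.0509).

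HSPC against EC-labelled libraries at 3 dpf differed in alas2, at 2.04 and 0.0338 FPKM against 56.5 and 88.5 FPKM (-5.34 ± 0.77, limma adjusted p = 0.00387). It was the 1 gene of the pathway called, and 0.780% of all genes were called lower. Without HSPC replicate 2, which held 1 read of alas2, the value was -4.56 and the adjusted p 0.0668. For the 8 later genes the values lay between -1.34 and -0.13 and none was called by limma or limma-voom, with 0 at an unadjusted p under 0.05.

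In the later genes the same sorts lay closer together. fech had 42.3 and 60.5 FPKM in HSPC against 57.0 and 76.4 FPKM in libraries labelled EC, and alad 66.5 and 50.8 against 53.6 and 75.7 FPKM. The libraries overlapped for both genes, while for the other 6 later genes both HSPC libraries lay below both EC libraries. The share of all genes separated in this way was not counted. The 22-library fit added alas1, at 96.1 and 105 FPKM in HSPC against 247 and 223 FPKM in EC (-1.22 ± 0.32, adjusted p = 0.0317), where 6.07% of all genes were called lower. Larval globins had 5 of 8 genes lower in HSPC, at 121 to 124 against 4256 to 6694 FPKM, and the red cell list 1 of 21 lower, at 894 to 968 against 1246 to 1333 FPKM, and their part was not tested.

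**Figure D4:**
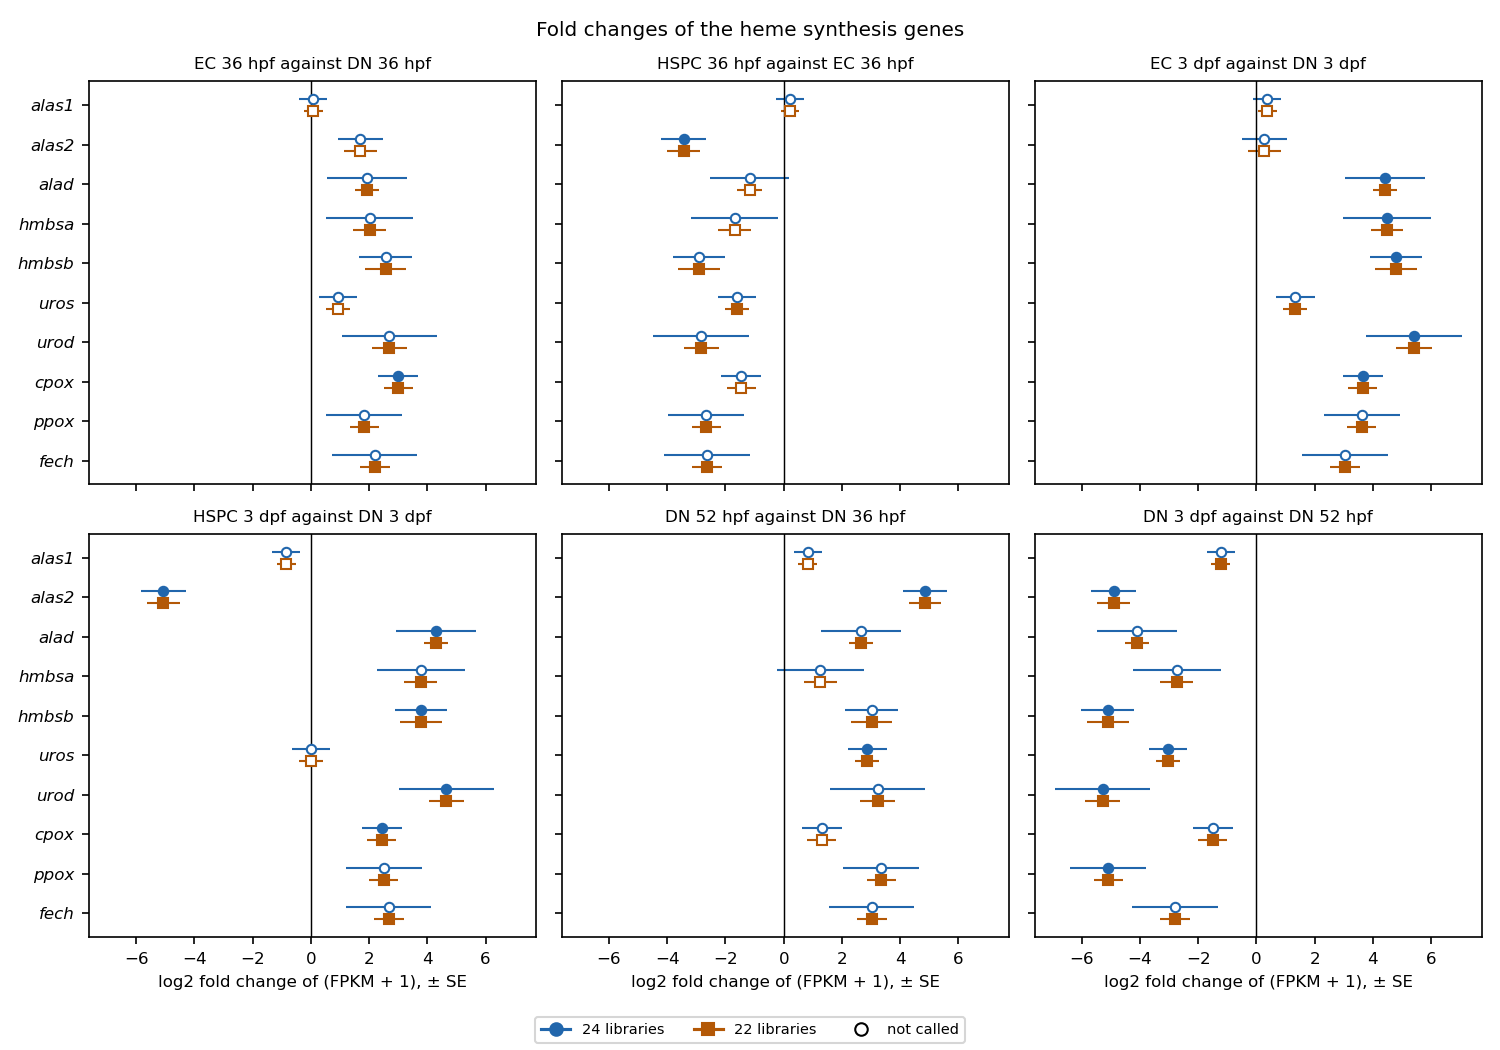
Log2 fold change of (FPKM + 1) with its standard error for the 10 genes in 6 comparisons, the group named first over the second; circles come from 24 libraries and squares from 22, and filled marks are called. In both 3 dpf panels the later genes lie to the right of 0 except uros in HSPC, while alas2 lies at 0.27 in EC and at -5.07 in HSPC.

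From 36 hpf to 3 dpf in HSPC sorts, both synthase genes fell. alas1 was at 96.1 and 105 FPKM in HSPC 3 dpf against 336 and 261 FPKM in HSPC 36 hpf (-1.55 ± 0.48, limma adjusted p = 0.0264). alas2 was at 2.04 and 0.0338 FPKM against 15.8 and 19.1 FPKM (-3.38 ± 0.77, adjusted p = 0.00334). The stages did not overlap for either gene, and 19.6% of all genes were called lower. Lower calls were thus about as frequent in the pathway as over all genes.

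The later genes had positive values in the same comparison, from 0.52 for uros to 3.33 for fech, and none was called with 24 libraries, 2 having an unadjusted p under 0.05 and 0 being called by limma-voom. fech had 42.3 and 60.5 FPKM in HSPC 3 dpf against 4.63 and 3.66 FPKM in HSPC 36 hpf, and alad 66.5 and 50.8 against 13.7 and 12.5 FPKM. With 22 libraries alad, hmbsa, hmbsb, urod, ppox and fech were called higher, where 11.6% of all genes were, and both synthase genes lower, where 25.8% were.

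Among genes near the pathway, steap3, a reductase for endosomal iron, rose to 39.6 and 50.7 FPKM in HSPC 3 dpf, against 2.12 and 2.52 FPKM in HSPC 36 hpf (3.79 ± 1.31, adjusted p = 0.0442). ppargc1a fell to 0.729 and 1.96 against 26.2 and 26.8 FPKM (-3.60 ± 0.67, adjusted p = 0.000652). ftr82 fell by 5.21 ± 0.78 on the log2 scale (adjusted p = 0.000101), although it is a finTRIM gene that stood on the iron list by error. The iron list had 4 of 20 genes higher and 2 lower, that of export and breakdown 2 of 14 lower and that of control 1 of 19 lower.

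Skin and muscle genes moved with the 2 HSPC stages. The 14 epidermal markers summed to 227 to 242 FPKM in HSPC 3 dpf against 20330 to 21580 FPKM in HSPC 36 hpf and all 14 fell, and 15 of 15 skeletal muscle markers fell. Larval globins summed to 121 to 124 against 1397 to 1584 FPKM with 5 of 8 lower, and red cell markers to 894 to 968 against 168 to 192 FPKM with 4 of 21 higher and 2 lower. HSPC and thrombocyte markers summed to 929.1 to 1054 FPKM in HSPC 3 dpf, against 164.7 to 230.4 FPKM in HSPC 36 hpf. Their part in these results was not tested. The alas1 call ended under limma-voom (adjusted p = 0.0823) and without any 1 of the 4 libraries (0.0761 to 0.170), and the alas2 call without HSPC 3 dpf replicate 2 (-2.60, adjusted p = 0.0673).

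From 3 to 4 dpf in HSPC sorts, alas2 rose to 49.5 and 226 FPKM, against 2.04 and 0.0338 FPKM at 3 dpf (5.92 ± 0.77, limma adjusted p = 0.00152). It was the 1 gene of the pathway called, where 0.119% of all genes were called higher. Without HSPC 4 dpf replicate 2 alone the value was 4.83 and the adjusted p 0.0539, and with both doubtful libraries left out the adjusted p was 0.00384, where 0.699% of all genes were called higher.

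Both HSPC 4 dpf libraries lay above both 3 dpf libraries for each later gene. How many of all genes did the same was not counted. HSPC 4 dpf replicate 2 is the library with 11265 genes and 43.9% of its FPKM in mitochondrial genes. urod had 347 and 460 FPKM at 4 dpf against 163 and 148 FPKM, and cpox 87.0 and 115 against 17.5 and 16.7 FPKM, but no later gene was called, with 3 at an unadjusted p under 0.05. Without EC 4 dpf replicate 2 alone, uros, cpox and ppox were called higher too. Larval globins summed to 2343 to 10270 FPKM at 4 dpf against 121 to 124 FPKM at 3 dpf and 5 of 8 rose, and red cell markers to 2222 to 4122 against 894 to 968 FPKM with 1 of 21 higher, and their part was not tested.

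Libraries labelled EC at 3 dpf did not differ detectably from EC at 36 hpf in any of the 10 genes. limma called 0, with 0 at an unadjusted p under 0.05, and limma-voom called 0, where limma called 12.5% of all genes. The log2 fold changes ran from -1.47 ± 0.77 for alas2, at 56.5 and 88.5 FPKM against 232 and 169 FPKM, to 1.08 ± 1.47 for fech. alas2 did not overlap between the stages, but the 22-library fit, with 24.5% of all genes called, did not call it (adjusted p = 0.0661).

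In that comparison tfr1b rose by 2.69 ± 0.56 (adjusted p = 0.00324) and ppargc1a and ftr82 fell, with log2 fold changes of -3.10 ± 0.67 and -2.83 ± 0.78 (adjusted p = 0.00426 and 0.0218). Endothelial markers summed to 99.6 to 114 FPKM in libraries labelled EC at 3 dpf against 212 to 301 FPKM at 36 hpf, with 6 of 15 lower. That list includes aqp1a.1, which is also on the red cell list. Epidermal markers summed to 606 to 691 against 10630 to 12860 FPKM, and larval globins to 4256 to 6694 against 13740 to 20120 FPKM. Neutrophil and macrophage markers summed to 11360 to 12200 against 2390 to 3799 FPKM. Red cell markers changed less, at 1246 to 1333 against 900.3 to 1224 FPKM. The part of these shifts in the result was not tested.

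Whether the sorts changed differently between 36 hpf and 3 dpf was tested as a difference of changes. For HSPC minus EC, values ran from -1.90 ± 1.09 for alas2 to 2.25 ± 2.08 for fech and 0 genes were called by limma, where 0.281% of all genes were, with 0 at an unadjusted p under 0.05 and 0 by limma-voom, and 0 with 22 libraries, where 2.38% were. For EC minus DN, 0 were called by limma, where 3.58% of all genes were, with 0 at an unadjusted p under 0.05 and 0 by limma-voom. The 22-library fit called alad (2.49 ± 0.59), hmbsa (2.46 ± 0.80) and urod (2.72 ± 0.86) in EC minus DN (adjusted p = 0.0119 to 0.0462), where 4.51% of all genes were higher. ppargc1a had the reverse sign in that difference (-4.93 ± 0.94, adjusted p = 0.0102).

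In DN cells alas2 and uros were higher at 52 hpf than at 36 hpf and 3 dpf. alas2 had 54.3 and 66.9 FPKM at 36 hpf, 2038 and 1545 FPKM at 52 hpf, 36.1 and 94.6 FPKM at 3 dpf and 149 and 133 FPKM at 4 dpf. uros had 13.1 and 13.8, 121 and 90.4, 12.3 and 11.6, and 24.8 and 18.0 FPKM at those stages. For both genes the 52 hpf libraries lay above every other DN library of embryos and larvae. The same held for alad, hmbsb, urod, ppox and fech, but not for alas1, hmbsa and cpox. The share of all genes separated in this way was not counted.

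Between DN 52 hpf and DN 36 hpf, alas2 rose by a log2 fold change of 4.86 ± 0.77 (limma adjusted p = 0.00258) and uros by 2.87 ± 0.66 (adjusted p = 0.0317). These were 2 of 10 genes, where 1.02% of all genes were called higher. All 10 values were positive, with a median of 2.95 beside -0.13 over all genes. The 22-library fit called 7 higher, alas2, alad, hmbsb, uros, urod, ppox and fech, where 4.77% of all genes were.

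ppox had 105 and 61.2 FPKM in DN 52 hpf against 7.59 and 6.39 FPKM in DN 36 hpf, and urod 294 and 197 against 24.2 and 25.4 FPKM, without overlap. cpox differed less, with 12.4 and 5.73 against 1.64 and 4.59 FPKM (1.31 ± 0.68, adjusted p = 0.466). blvrb, a biliverdin reductase abundant in red cells, rose to 320.0 and 262 against 16.3 and 20.4 FPKM (3.92 ± 0.62, adjusted p = 0.00262). fth1a, a ferritin chain that stores iron, rose to 7340 and 6401 against 624 and 632 FPKM (3.45 ± 0.41, adjusted p = 0.000179).

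Red cell genes rose alongside. The red cell list summed to 4417 to 5785 FPKM in DN 52 hpf against 307 to 336 FPKM in DN 36 hpf with 6 of 21 higher, and larval globins to 88960 to 96690 against 4837 to 5212 FPKM with 4 of 8 higher, and their part was not tested. The alas2 call ended with a pseudocount of 0.1 (adjusted p = 0.0610) and without DN 52 hpf replicate 1 (0.0546). The uros call ended with that pseudocount (0.240), under limma-voom (0.219) and without any 1 of the 4 libraries (0.207 to 0.268).

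Between DN 3 dpf and DN 52 hpf, 5 of the 10 genes fell. The log2 fold change was -4.90 ± 0.77 for alas2 (limma adjusted p = 0.000454), -5.11 ± 0.90 for hmbsb (0.00105) and -3.03 ± 0.66 for uros (0.00440). urod fell to 5.63 and 4.77 FPKM in DN 3 dpf against 294 and 197 FPKM in DN 52 hpf (-5.29 ± 1.64, adjusted p = 0.0381) and ppox to 1.90 and 0.943 against 105 and 61.2 FPKM (-5.10 ± 1.31, adjusted p = 0.0127). Lower calls made up 3.91% of all genes, and alas1, alad, hmbsa, cpox and fech did not pass (adjusted p = 0.0539 to 0.290).

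The 22-library fit called all 10 genes lower in DN 3 dpf, alas1 included, where 10.7% of all genes were. alas1 had 135 and 244 FPKM in DN 3 dpf against 349 and 525 FPKM in DN 52 hpf (-1.23 ± 0.32 with 22 libraries, adjusted p = 0.00807). The breakdown genes blvra and blvrb and the reductase gene steap3 fell as well, with log2 fold changes of -3.45 ± 1.08, -3.96 ± 0.62 and -4.03 ± 1.31 (adjusted p = 0.0403, 0.000470 and 0.0475).

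Larval globins and red cell genes were lower too, with sums of 4457 to 8778 FPKM in DN 3 dpf against 88960 to 96690 FPKM in DN 52 hpf and of 267 to 458 against 4417 to 5785 FPKM, and 6 of 8 and 9 of 21 fell while 2 red cell markers rose. Their part was not tested. alas2 and hmbsb kept their calls in every fit run. Under limma-voom uros, urod and ppox were not called (adjusted p = 0.129 to 0.159), nor with a pseudocount of 0.1 (0.0764 to 0.167). With no filter urod was not called (0.0632), and under median-of-ratios scaling alad was (0.0366). Without DN 52 hpf replicate 1 uros was not called (0.0609), and urod and ppox were not called without any 1 of the 4 libraries (0.0561 to 0.196).

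DN 4 dpf against DN 3 dpf gave 0 called genes by limma and 0 by limma-voom, 2 at an unadjusted p under 0.05, and 0.2% of all genes called. All 10 values were positive, with a median of 1.62 beside 0 over all genes. urod had 46.9 and 49.3 FPKM in DN 4 dpf against 5.63 and 4.77 FPKM in DN 3 dpf (2.99 ± 0.61 with 22 libraries, adjusted p = 0.0254), and hmbsb 21.7 and 20.9 against 2.65 and 0.684 FPKM (3.17 ± 0.71, adjusted p = 0.0391). The 22-library fit called these and alad and cpox higher, where 1.22% of all genes were. Red cell markers summed to 692 to 697 FPKM in DN 4 dpf against 267 to 458 FPKM in DN 3 dpf, larval globins to 11150 to 12800 against 4457 to 8778 FPKM, muscle markers to 2127 to 3027 against 358 to 525 FPKM and epidermal markers to 5584 to 6580 against 1750 to 3606 FPKM. None of these markers was called with 24 libraries, and their part was not tested.

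In the adult kidney, HSPC and DN libraries overlapped in every gene of the pathway except alas2 and uros, and HSPC replicate 2 was below replicate 1 in all 10 genes. The shares of all genes that overlapped, or that were lower in HSPC replicate 2, were not counted. Whether the pathway differs from other genes in these respects is therefore not known. alas2 had 213 and 52.4 FPKM in kidney HSPC against 558 and 521 FPKM in kidney DN cells, without overlap (-2.34 ± 0.77, limma adjusted p = 0.0767). limma called 0 genes, where 7.6% of all genes were called, with 2 at an unadjusted p under 0.05 and 0 called by limma-voom. Under median-of-ratios scaling alas2 was lower (-2.92, adjusted p = 0.0344), as it was without HSPC replicate 1 (-3.34, adjusted p = 0.0247) and with 22 libraries (adjusted p = 0.00752), where uros was called lower as well (-1.41 ± 0.41, adjusted p = 0.0223) and 7.92% of all genes were.

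urod had 289 and 32.8 FPKM in kidney HSPC against 122 and 81.9 FPKM in kidney DN cells, so the HSPC libraries lay on both sides of the DN libraries. Adult globins summed to 1518 to 4172 FPKM in kidney HSPC against 24150 to 42260 FPKM in kidney DN cells and 4 of 4 fell, and red cell markers to 427 to 1815 against 2695 to 3103 FPKM with 2 of 21 lower, and their part was not tested.

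Kidney HSPC against tail HSPC at 3 dpf differed in alas2, at 213 and 52.4 FPKM against 2.04 and 0.0338 FPKM (5.92 ± 0.77, limma adjusted p = 6.38e-05), a call that held in every fit run. It was 1 of 10 genes, where 14.1% of all genes were called higher. The later genes had values from -0.66 for alad to 1.23 for uros and none was called by limma or limma-voom, with 0 at an unadjusted p under 0.05, and the 22-library fit added uros (1.23 ± 0.41, adjusted p = 0.0353), where 25.5% of all genes were higher. hmox1a, a heme oxygenase that breaks heme down, rose to 31.8 and 30.5 FPKM in kidney HSPC against 0 and 3.24 FPKM in HSPC 3 dpf (3.97 ± 0.91, adjusted p = 0.00714). Adult globins summed to 1518 to 4172 FPKM in kidney HSPC and were listed at 0 in HSPC 3 dpf, and larval globins summed to 2.13 to 3.28 against 121 to 124 FPKM with 4 of 8 lower. Red cell markers, at 427 to 1815 against 894 to 968 FPKM, had 3 of 21 higher and liver markers 10 of 12 higher, and their part was not tested.

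Kidney DN cells against tail DN cells at 4 dpf differed in uros, at 68.3 and 92.1 FPKM against 24.8 and 18.0 FPKM (1.86 ± 0.66, limma adjusted p = 0.0402), where 12.5% of all genes were called higher. That call ended with a pseudocount of 0.1 (adjusted p = 0.108), under limma-voom (0.168) and without any 1 of the 4 libraries (0.0639 to 0.210). alas2 had 558 and 521 FPKM in kidney DN cells against 149 and 133 FPKM in tail DN cells (1.93 ± 0.77, adjusted p = 0.0670). alas1 went the other way, with 180 and 108 against 313 and 364 FPKM (-1.26 ± 0.48, adjusted p = 0.0557), and no groups overlapped for these 3 genes.

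With 22 libraries alas2, alad, hmbsa, uros, cpox, ppox and fech were higher in kidney DN cells, where 18.6% of all genes were, and alas1 was lower, where 24.6% were. blvrb rose to 367 and 224 FPKM in kidney DN cells against 38.2 and 37.6 FPKM in tail DN cells (2.89 ± 0.62, adjusted p = 0.00142), and slc40a1 fell to 1.16 and 4.40 against 34.2 and 31.4 FPKM (-3.31 ± 0.78, adjusted p = 0.00308). ftr82 fell by 3.60 ± 0.78 on the log2 scale (adjusted p = 0.00152).

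Markers differed widely between kidney and tail DN cells. Red cell markers summed to 2695 to 3103 FPKM in kidney DN cells against 692 to 697 FPKM in DN 4 dpf, with 4 of 21 higher and 4 lower. Adult globins summed to 24150 to 42260 against 0 to 1.02 FPKM with 4 of 4 higher, and larval globins to 6.88 to 11.2 against 11150 to 12800 FPKM with 6 of 8 lower. Neutrophil and macrophage markers had 6 of 14 higher, liver markers 12 of 12 higher, and epidermal and muscle markers 10 of 14 and 13 of 15 lower. Their part was not tested.

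**Figure D5:**
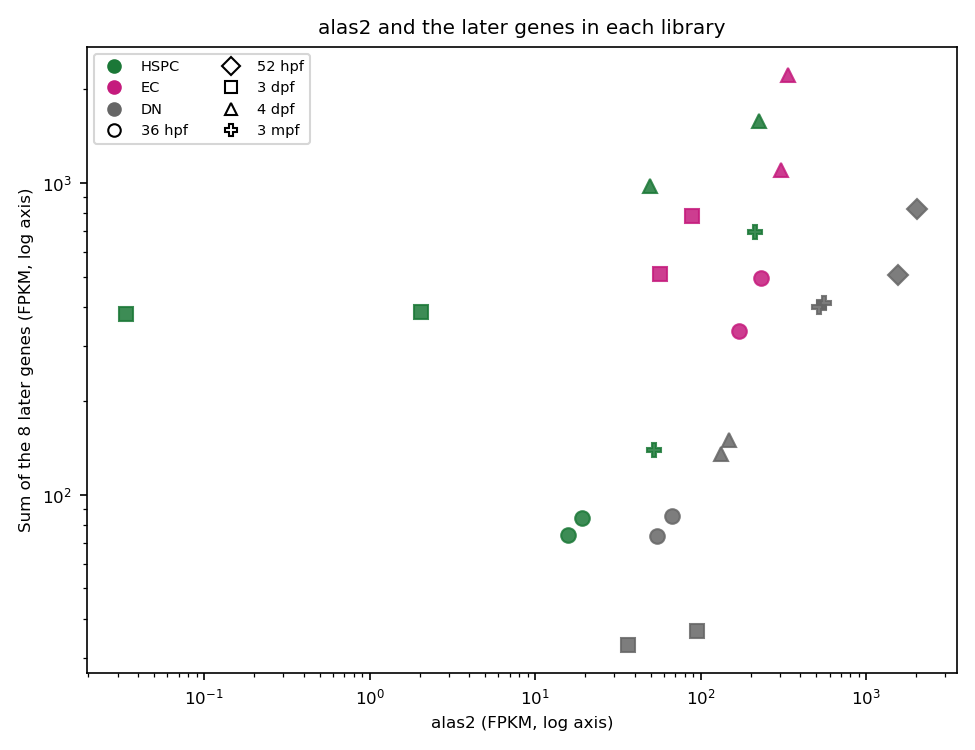
Summed level of the 8 later genes (FPKM, log axis) against the level of alas2 (FPKM, log axis) in each of 24 libraries; colors mark the sort and shapes the stage. HSPC 3 dpf lies far left at 386 and 379 FPKM of later genes, and DN 52 hpf far right at 824 and 508 FPKM.

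The plot of alas2 against the summed later genes shows how far the balance of alas2 and the later genes differed per length. alas1, the other gene of the entry step, is left out of the ratios. The synthase genes together summed to 98.1 and 105 FPKM in HSPC 3 dpf, nearly all of it alas1. In HSPC 3 dpf replicate 1 the sum of the 8 later genes was 190 times alas2, and replicate 2, with 1 read of alas2, is given no ratio. In HSPC 4 dpf it was 19.8 and 6.997 times alas2, in libraries labelled EC at 3 dpf 9.04 and 8.84 times, in EC 36 hpf 2.13 and 1.98 times and in kidney HSPC 3.27 and 2.66 times. DN libraries had less of the later genes for their alas2, with ratios of 1.36 and 1.28 in the DN 36 hpf sort, 0.404 and 0.329 in DN 52 hpf, 0.912 and 0.386 in DN 3 dpf, 1.01 and 1.02 in DN 4 dpf, and 0.739 and 0.769 in kidney DN cells.

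Every HSPC and EC library had a higher ratio of later genes to alas2 than every DN library. HSPC 36 hpf stood at 4.71 and 4.41, and EC 4 dpf at 6.59 and 3.60. With alas1 included this did not hold. The synthase genes together summed to 351.8 and 280.2 FPKM in HSPC 36 hpf, against 283.5 and 321.7 FPKM in DN 36 hpf. The later genes summed to 74.5 and 84.4 FPKM in HSPC 36 hpf, against 73.6 and 85.6 FPKM in DN 36 hpf. HSPC 3 dpf and EC 36 hpf illustrate the spread, since the later genes summed to 386 and 379 FPKM in the first and 495 and 335 FPKM in the second, while alas2 was at 2.04 and 0.0338 FPKM against 232 and 169 FPKM. These ratios are descriptions, and no test was made of them.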

How the data were processed

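Poly(A) RNA of 24 sorted-cell samples was sequenced. The authors deposited 1 table of FPKM values for 25067 genes. Per the submitters' processing notes FastQC, HISAT, HTSeq, DESeq2 and the build GRCz10 were used, with no versions. How genes were filtered before deposit was not given in the sources. The members and lists were chosen with earlier results of these data known.

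Values were analysed as log2(FPKM + 1), which understates the change of low genes. Genes at 1 FPKM or more in at least 2 libraries (21024) entered limma 3.58.1 in R 4.3.3, with 12 group means, 17 comparisons, a trended prior and Benjamini-Hochberg adjustment over all genes kept. Called genes had an adjusted p under 0.05 and a fold of 1 log2 unit or more. The fit was tested on simulated counts, with the same gene profile and spread in all libraries apart from genes changed on purpose. That simulation held no library lacking genes as EC 4 dpf replicate 2 does, so it does not cover that case. Whole reads were recovered from the steps of the FPKM values for 23718 of 23718 genes above 0 in 3 or more libraries, within 0.01 reads, and used for depth and limma-voom. Depth ranged from 1741360 to 21338170 reads. The 10 members were all named, as were up to 3 called genes per comparison from the neighbour lists, by largest change at a mean of 5 FPKM or more in the higher group, and the 5 genes most like alas1 and alas2. Sequences and coordinates were not used here.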

Additional observations from a re-analysis of the deposited data

Results flagged for a closer look

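The EC 4 dpf libraries enter no comparison of the report, and 4 genes of the pathway stood above DN 4 dpf in both of them. The lower EC 4 dpf library over the higher DN 4 dpf library gave an FPKM ratio of 2.06 for alas2, with 336 and 307 FPKM in EC 4 dpf against 149 and 133 FPKM in DN 4 dpf. The same ratio was 13.7 for hmbsb, at 299 and 297 FPKM against 21.7 and 20.9 FPKM. It was 4.79 for uros, at 119 and 324 against 24.8 and 18.0 FPKM, and 14.2 for cpox, at 219 and 484 against 15.4 and 12.2 FPKM. The other 6 genes did not stand above DN 4 dpf in both EC 4 dpf libraries, since replicate 2 had alad, hmbsa, ppox and fech at 0 and urod at 0.889 FPKM, and alas1 was at 187 and 307 FPKM against 313 and 364 FPKM. These ratios are values without a test, and EC 4 dpf replicate 2 is the shallowest library, with 2483 genes above 0. Its size factor was 2.15, against 1.05 in each DN 4 dpf library, and the ratios are not corrected for this. For alas2 the lower EC 4 dpf library is replicate 2, so its ratio of 2.06 is not shown to outlast such scaling. The share of all genes that stood above DN 4 dpf in both EC 4 dpf libraries was not counted. Whether the pathway differs from other genes in this respect is therefore not known.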

How the results depend on the processing

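Of 170 results for single genes, 25 were called as reported, 6 of them in every fit run, and 82 were called in at least 1 fit. No result that was ever called changed sign. With a pseudocount of 0.1 the number of genes called was 0 in HSPC 36 hpf against EC, EC 36 hpf against DN, DN 52 hpf against DN 36 hpf and kidney DN against DN 4 dpf, 3 in EC 3 dpf and in HSPC 3 dpf against DN, and 2 in DN 3 dpf against DN 52 hpf. Without a filter kidney DN against DN 4 dpf had 2, and hmbsa was lost in EC 3 dpf against DN and urod in HSPC 3 dpf against DN and in DN 3 dpf against DN 52 hpf. Median-of-ratios scaling gave 0 in HSPC 36 hpf against EC and 1 in kidney HSPC against kidney DN, lost urod in HSPC 3 dpf against DN and added alad in DN 3 dpf against DN 52 hpf. It moved the median of all genes by 0.16 (log2) in HSPC 36 hpf against EC, by -0.12 in HSPC 3 dpf against HSPC 36 hpf, by -0.35 and -0.27 in kidney HSPC against kidney DN and HSPC 3 dpf, and by 0.12 in kidney DN against DN 4 dpf. limma-voom gave 0 in HSPC 36 hpf against EC, in EC 36 hpf against DN and in kidney DN against DN 4 dpf, 3 in EC 3 dpf against DN, 1 in HSPC 3 dpf against HSPC 36 hpf and in DN 52 hpf against DN 36 hpf, and 2 in DN 3 dpf against DN 52 hpf.

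Without both low-complexity 4 dpf libraries, a choice made after seeing earlier results, the counts were 6 in HSPC against EC, 7 in EC against DN and 2 in HSPC against DN at 36 hpf, 2, 8 and 8 in the same pairs at 3 dpf, 8 in HSPC 3 dpf against 36 hpf, 7 and 10 in DN 52 hpf against 36 hpf and DN 3 dpf against 52 hpf, 4 in DN 4 dpf against 3 dpf, 2 in each kidney HSPC comparison, 8 in kidney DN against DN 4 dpf and 3 in the EC minus DN difference of changes. Leaving out 1 library at a time, EC 4 dpf replicate 2 included, gave 0 to 4, 0 to 6 and 0 to 1 genes in the 36 hpf pairs, 0 to 2 in HSPC 3 dpf against EC, 2 to 8 in EC 3 dpf and in HSPC 3 dpf against DN, 0 to 7 in HSPC 3 dpf against 36 hpf, 0 to 4 in HSPC 4 dpf against 3 dpf, 0 to 7 in DN 52 hpf against 36 hpf, 2 to 10 in DN 3 dpf against 52 hpf, 0 to 1 in DN 4 dpf against 3 dpf, 0 to 2 in kidney HSPC against DN, 1 in kidney HSPC against HSPC 3 dpf, 0 to 7 in kidney DN against DN 4 dpf and 0 to 1 in EC minus DN. A lone library was assumed to vary like the other groups. The cause of these shifts was not tested, nor was the part of lower power with fewer libraries. EC 4 dpf replicate 2 widened the shared spread, as given above.

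A replicate block called 6 genes in EC 3 dpf against DN, adding ppox, and moved no other count. With the DN 3 dpf numbers crossed the count was 5. Deviations of same-numbered samples correlated at -0.34 to 0.27 over 21024 genes, so the numbers were not taken to pair samples.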

Other observations

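The balance between the hmbs paralogs differed between libraries, as far as the counting kept them apart. hmbsa made up 18.4% and 19.5% of their summed FPKM in the DN 52 hpf libraries and 49.0% and 72.2% in the DN 3 dpf libraries, the last from 41 reads of hmbsa and 21 of hmbsb.

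Over 12 group means, alas2 correlated at 0.71 with the red cell list and uros at 0.73, and ppox at 0.83. Without EC 4 dpf these were 0.76, 0.98 and 0.83 over 11 group means, so that uros stood highest. alad and hmbsa correlated at 0.84 each with the list of HSPC and thrombocyte markers and fech at 0.81. alas1 correlated at 0.79 with embryonic and larval globins, against 0.38 for alas2, but at 0.10 with the red cell list. Those globins summed to at most 11.2 FPKM in the kidney libraries. These are descriptions over group means that share libraries and depth, and no test was made of them.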
